A study of Mus musculus with 52 samples.

Results

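The mouse embryonic stem (ES) cell line HM-1 was set directly against the line HM-1 NT on 4 two-colour cDNA arrays, chosen by their titles, out of 52 arrays of 13 comparisons among 7 ES lines. HM-1 is a mouse ES line that lacks Hprt and is widely used for gene targeting. The labels do not spell out NT, and per the series design what sets the lines apart is where their donor nuclei came from. Each group is thus 1 line, with no stated passage, culture condition or number of cultures. For each channel, 20 microgram of total RNA went into reverse transcription and the cDNA was coupled to Cy3 or Cy5 afterwards (indirect labelling). HM-1 NT was in the Cy5 channel on arrays 1 and 2 and in the Cy3 channel on arrays 3 and 4. The labels' protocols also mention organs and a reference pool from control animals, while the channel labels name an ES line on each side of every array. These channel labels were used.

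ES lines are derived from the inner cell mass of the blastocyst and keep a network of transcription factors around Oct4 and Sox2 that holds them pluripotent. A nuclear transfer embryo starts from the nucleus of another cell placed into an enucleated egg, whose factors reset the donor's chromatin. ES cells divide fast with a short gap before DNA synthesis, and their histone, ribosome and protein turnover genes are highly active.

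Each value below is a log2 ratio, HM-1 NT minus HM-1, so that a positive value stands for more signal in HM-1 NT. This sign holds if the deposited ratio is Cy5 over Cy3, which the sources used here do not state. If it is Cy3 over Cy5, every sign turns, while sizes, tests and counts stay. The sign also rests on turning arrays 3 and 4 by their dye labels. Before turning, rank correlations between an array of one orientation and one of the other ran from 0.135 to 0.302 over 15163 to 15587 features, and after turning from -0.302 to -0.135, against 0.389 between arrays 1 and 2 and 0.469 between arrays 3 and 4. Arrays of opposite orientation thus opposed each other over all features once turned. The files hold ratios without intensities, so signal over background and expression levels are unknown, and ES cell identity could not be checked from marker levels. Some extreme values recur to 3 decimals in unrelated genes on the same array, and they were kept. On array 2 Casq1 and Bckdk both gave -8.505. On array 3 Thnsl1 and Nfe2 both gave 6.395, and Siah1a and Prkd2 both 4.754. On array 4 Siah1a and Pou3f3 both gave 4.115. Whether 1 channel lay near background at such values was not tested. The number of arrays limits the precision. The labels do not say whether the 4 arrays came from separate cultures, so p-values measure the spread between arrays, which may be technical. Unless stated otherwise, each SE and p-value uses the spread within all comparisons of the series, fitted together. An SE given with ± is thus not the spread of the 4 arrays alone. A gene whose 4 arrays lie far apart can have a small SE.

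Of 16127 features tested, 8610 of them genes with a symbol, 41 passed limma's moderated test at an adjusted p under 0.05, which is 0.254% of the features. A positive value was found for 27 of them (0.167%) and a negative one for 14 (0.0868%). A gene symbol was listed for 23, with 16 positive and 7 negative. All measured arrays gave the same sign for 15 of the 23 named genes and for 28 of the 41 features, against 15.4% of all features tested. The test that picked the 41 used these same arrays and favours like signs, so this contrast does not back the calls. The median of all features was -0.05 and 44.8% were positive. At an unadjusted p under 0.05 there were 631 positive features (3.91%) and 402 negative ones (2.49%). The 4 arrays fitted alone gave 0 calls in limma at the adjusted threshold and 1719 features at an unadjusted p under 0.05. With all ratios left as deposited, not turned, 618 features passed, 11 of them among the 41. If the dye labels are right, a difference between the lines cancels between the orientations in that setting. Its values, here and below, therefore do not check the turned ones. Without array 3 there were 19 calls, and without array 4 there were 24. Which sign prevailed depended on single arrays. There were 5 positive and 14 negative calls without array 3, and 6 and 18 without array 4. There were 53 and 4 without array 2, and 28 and 11 without array 1. As deposited there were 109 and 509.

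The same difference between the lines could be formed from 16 other arrays, as HM-1 against B6NT plus B6NT against HM-1 NT, and as HM-1 against ZFCUMNT minus HM-1 NT against ZFCUMNT. B6NT and ZFCUMNT are other ES lines of the series. The mean of these routes is called the indirect value here. It shares no array with the direct comparison but shares both lines. By this indirect measure 15 of 13577 features passed (0.11%), 11 positive (0.081%) and 4 negative (0.0295%). The direct minus the indirect value passed limma's adjusted threshold for 0 of 13323 features, with 491 at an unadjusted p under 0.05.

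**Figure D1:**
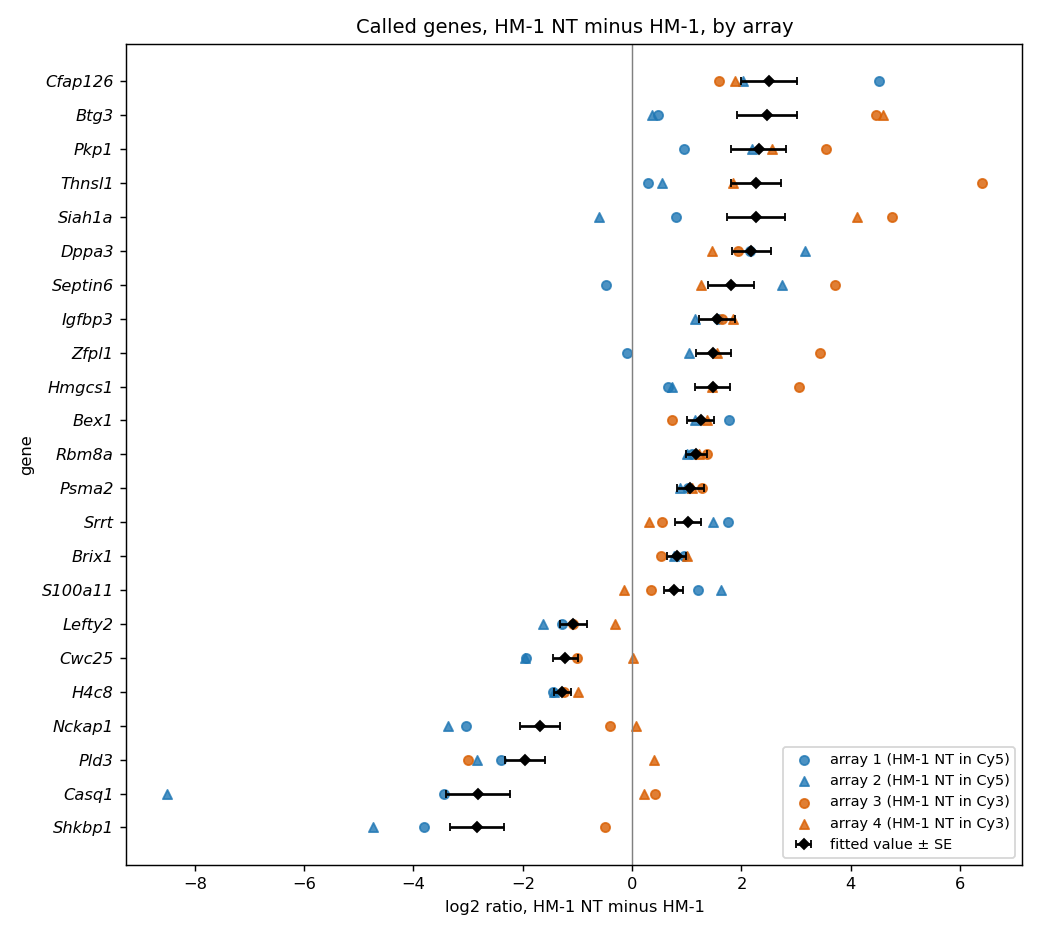
Log2 ratio (HM-1 NT minus HM-1) of the 23 called genes with a symbol on each array. Black diamonds with bars are fitted values ± SE from the fit over all arrays of the series. Colour gives the dye of HM-1 NT. The 4 points of H4c8, Rbm8a, Psma2 and Brix1 lie close together, while Btg3 and Siah1a have high values only on arrays 3 and 4 and Casq1 low ones only on arrays 1 and 2.

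The histone genes held the smallest adjusted p of the comparison. H4c8, a gene on chromosome 13 for the core histone H4, gave -1.45, -1.43, -1.25 and -0.99 on arrays 1 to 4. All 4 arrays were negative and lay within a narrow range, whichever dye HM-1 NT carried. The fitted value was -1.28 ± 0.15 (n = 4 arrays, with the SE from the fit over all arrays of the series). This is a 2.43-fold difference with an adjusted p of 2.7e-06 in limma. It passed in every fit without 1 array, at -1.38 to -1.21. The indirect value was -1.04 ± 0.15 (16 arrays, SE from the fit over all arrays), with an adjusted p of 1.1e-04 in limma. The direct minus the indirect value was -0.24, with a 95% interval from -0.67 to 0.20. H4c8 belongs to a family of H4 genes with nearly the same coding sequence, so a cDNA probe may not tell the copies apart. The other H4 genes tested, H4c9 and H4c1, lay nearer 0, between -0.30 and -0.28. Neither was called or had the same sign on every array.

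The other canonical core histone genes of the histone list lay on the same side of 0 without passing the test. H3c15, a gene for histone H3, gave -1.33, -1.29, -0.90 and -0.70, negative on all arrays, with a fitted value of -1.05 ± 0.27 and an adjusted p of 0.0806. H2ac19, for histone H2A, gave 0.20 and -0.11 on arrays 1 and 2 and -1.52 and -1.91 on arrays 3 and 4, so that its negative value of -0.83 ± 0.31 (adjusted p = 0.458) came from 1 dye orientation. The 7 canonical core histone genes tested from the list, of H2A, H2B, H3 and H4, had negative values, while the histone variants were split, with 3 positive and 3 negative. The linker histone H1f2 was positive at 0.41. Of the 23 tested genes in the list of histones and their chaperones 15 were negative, with a median of -0.22 against -0.05 for all features. 6 of the 23 were negative at an unadjusted p under 0.05 (26.1% against 2.49%), and 2 were positive. Without the turn of arrays 3 and 4 the list's median was -0.08. Cenpa, the centromeric H3 variant, gave -0.03 and -0.11 on arrays 1 and 2 but 5.73 and 5.10 on arrays 3 and 4, and did not pass at 2.67 ± 0.94 (adjusted p = 0.388). The indirect median of the list was -0.04.

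The region before the H4c8 start is shown because H4c8 had the smallest p and was called in every comparison with HM-1 described below. The promoter, 250 bases before to 50 after the start, is from RefSeq for the build GRCm38.p6, chr13:23530794-23531093, plus strand, 5′ to 3′. Capitals mark GGTCC, letters that stand in the cell cycle element of H4 promoters, on the shown strand (GGTCC) and on the other strand (GGACC).
H4c8: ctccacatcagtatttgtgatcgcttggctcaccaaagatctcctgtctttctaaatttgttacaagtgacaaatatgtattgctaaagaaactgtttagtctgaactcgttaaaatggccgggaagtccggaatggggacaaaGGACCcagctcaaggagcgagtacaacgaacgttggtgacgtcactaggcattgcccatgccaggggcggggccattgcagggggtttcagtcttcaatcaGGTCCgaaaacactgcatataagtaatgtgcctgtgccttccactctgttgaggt
It held GGTCC once on each strand, in a window in which 45.5% of 32851 promoters hold it at least once on either strand, and 10 CG dinucleotides, a number that 43.5% of promoters reach. RefSeq promoters were found for 17 of the 23 called genes.

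Against the 5 other lines set against HM-1, H4c8 was negative each time. It was -0.98 ± 0.15 against #4 (B6), -1.10 ± 0.15 against B6NT, -1.28 ± 0.15 against B6PGA, -1.26 ± 0.15 against PDCUMNT and -1.20 ± 0.15 against ZFCUMNT, and passed in all 5. The share of all features called negative was 0.14%, 0.0424%, 0.105%, 0.581% and 0.0629% in the same order. HM-1 NT against the other lines gave values near 0, at -0.00 ± 0.15 for B6NT against HM-1 NT and -0.22 ± 0.15 for HM-1 NT against ZFCUMNT. These comparisons share HM-1 or HM-1 NT RNA with each other.

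**Figure D2:**
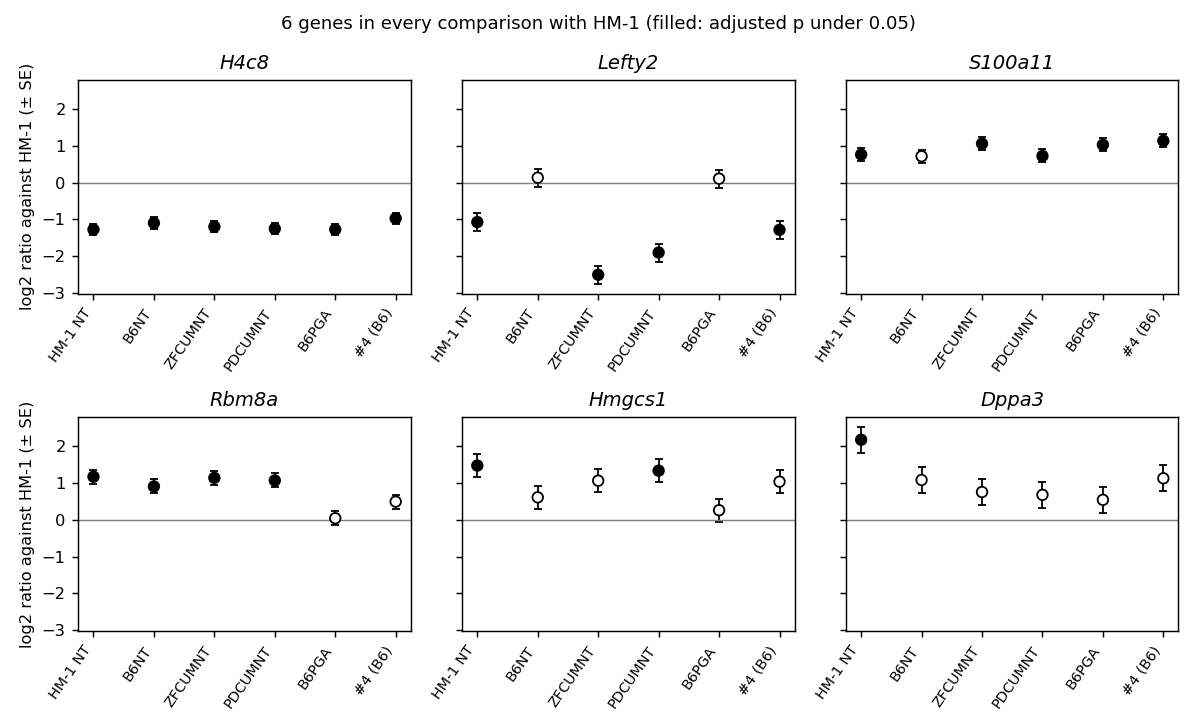
Log2 ratio against HM-1 (other line minus HM-1, 4 arrays each) for 6 called genes in the 6 comparisons that hold HM-1. Values are shown ± SE from the fit over all arrays of the series. Filled points passed an adjusted p of 0.05. H4c8 lies between -1.28 and -0.98 throughout, S100a11 between 0.71 and 1.14, and Lefty2 near 0.1 for B6NT and B6PGA but at -1.08 or lower for the other 4 lines.

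Among genes of the Nodal pathway, in which a TGF-beta family ligand signals through activin receptors and Smad proteins and the Lefty proteins hold it back, 1 of 17 tested passed. Lefty2, the secreted Nodal inhibitor on chromosome 1, gave -1.27, -1.64, -1.08 and -0.31. It was negative on all 4 arrays, least so on array 4, and the fitted value was -1.08 ± 0.25 (adjusted p = 0.0387 in limma). The call was lost without array 1, 2 or 3, and the values without 1 array ran from -1.32 to -0.90. By the indirect route it was larger, -1.80 ± 0.25 (adjusted p = 3.4e-05), and the direct minus the indirect value was 0.72, with a 95% interval from 0.02 to 1.43. Its neighbour on chromosome 1, the paralogue Lefty1, gave -1.36, -0.72, -1.81 and -1.16 as the average of 2 probes, negative on all arrays, but did not pass at -1.26 ± 0.44 (adjusted p = 0.348). The signal transducers and receptors of the list lay near 0, with Smad4 at -0.12 ± 0.33, Smad3 at -0.05 ± 0.41 and the ligand Gdf1 at 0.01 ± 0.29. The list's median was -0.07, close to that of all features, and lay between -0.20 and 0.03 under the other processing settings.

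In the other comparisons Lefty2 split the lines. It was -2.51 ± 0.25 in ZFCUMNT, -1.91 ± 0.25 in PDCUMNT and -1.29 ± 0.25 in #4 (B6) against HM-1, all called negative, but 0.13 ± 0.25 in B6NT and 0.11 ± 0.25 in B6PGA. B6NT against HM-1 NT gave -1.64 ± 0.25, also called, with HM-1 NT the lower line (0.604% of features called negative there). H4c8 and Lefty2 were thus both negative in HM-1 NT, while B6NT against HM-1 was called for H4c8 and not for Lefty2.

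Dppa3 had the second smallest adjusted p among the named genes. It encodes Stella, an oocyte and pluripotent cell factor that protects methylated DNA in the early embryo, and lies on chromosome 6. Its values were 2.16, 3.16, 1.93 and 1.47. Every array was well above 0, and array 2 was the highest. The fitted value was 2.18 ± 0.35, a 4.53-fold difference (adjusted p = 1.2e-03 in limma), and it passed in every fit without 1 array, at 1.95 to 2.32. The indirect value was 1.14 ± 0.35, with an adjusted p of 0.309, and the direct minus the indirect value was 1.04, with a 95% interval from 0.03 to 2.04. None of the 5 other comparisons with HM-1 was called for Dppa3, with values from 0.55 to 1.13.

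The core pluripotency factors did not pass the test. Pou5f1, which encodes Oct4, gave 0.50, 0.92, 0.46 and -0.06, with array 4 on the other side of 0, and 0.46 ± 0.22 in the fit (adjusted p = 0.731). Sox2, the partner of Oct4, gave -1.79 and -2.60 on arrays 1 and 2 and 0.19 and 0.41 on arrays 3 and 4, so its orientations opposed each other (fitted -0.95 ± 0.45, adjusted p = 0.731). These Sox2 values average 2 probes, of which 1 taken singly gave 0.23 ± 0.30. Klf4, a reprogramming factor, stayed between 0.09 and 0.28 on all arrays, and Dppa5a, an RNA-binding protein of ES cells, was 0.38 ± 0.20 with an adjusted p of 0.844. Nanog was not among the probes with a symbol. Trim28, the corepressor that silences retroviruses in ES cells, was positive on all arrays at 0.41 to 1.06 (fitted 0.82 ± 0.23, adjusted p = 0.155). Sall4 was 0.49 ± 0.22 and its relative Sall1 -0.84 ± 0.35, neither called. Of 29 pluripotency genes tested 18 were positive, with a median of 0.13, and Dppa3 was the 1 called.

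Zfp42 was not called in HM-1 NT but was called against HM-1 in all 5 other lines. It encodes Rex1, a marker of naive ES cells, and gave 0.22, -0.21, 0.42 and 0.52 on arrays 1 to 4. These values lay on both sides of 0, and the fitted value was 0.24 ± 0.41 (adjusted p = 1.0 in limma). In each of the 5 other comparisons with HM-1 it was called negative, from -2.90 ± 0.41 in B6NT to -2.14 ± 0.41 in B6PGA. B6NT against HM-1 NT gave 2.24 ± 0.41 (adjusted p = 2.1e-03), with 0.434% of features called positive. HM-1 NT against ZFCUMNT, measured on 3 arrays, was -0.70 ± 0.47 and not called. The route by way of ZFCUMNT therefore gave -1.74 ± 0.62 and that by way of B6NT -0.66 ± 0.57, with a mean of -1.20 (adjusted p = 0.426). Direct minus indirect was 1.44, with a 95% interval from 0.25 to 2.62 and an unadjusted p of 0.0186 in limma that did not pass adjustment, so the direct and indirect values of Zfp42 lay on opposite sides of 0.

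The proteasome list had the largest median of all 23 lists. The proteasome is the barrel-shaped protease of the cell, with rings of alpha and beta subunits and a regulatory cap that unfolds tagged proteins. Psma2, an alpha ring subunit on chromosome 13, gave 1.03, 0.87, 1.27 and 1.09. The 4 values lay close together in both orientations, and the fitted value was 1.06 ± 0.25 (adjusted p = 0.0424 in limma). With any 1 array left out the call was lost although the value stayed at 0.999 to 1.13. It passed by the indirect route too, at 1.31 ± 0.25 (adjusted p = 8.2e-03), with 1.69 by way of B6NT and 0.93 by way of ZFCUMNT. The arrays of HM-1 against B6NT spread from 0.92 to 3.52 for Psma2.

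Of 41 proteasome genes tested 34 were positive, with a median of 0.46, and 1 passed. Array medians of the list were 0.41, 0.46, 0.52 and 0.59. The same sign on every measured array and a positive value were seen for 20 of the 41 (48.8%, against 7.9% of all features), and 15 had a positive value at an unadjusted p under 0.05 (36.6% against 3.91%). By ring, all 6 alpha subunits were positive with a median of 0.71, 7 of 8 beta subunits with a median of 0.47, and all 5 cap ATPases with a median of 0.42. The non-ATPase cap subunits were lower, 8 of 11 positive with a median of 0.24. Psmb1, a beta ring subunit, was 0.81 ± 0.24 (adjusted p = 0.19), and the ATPases Psmc6 and Psmc2 were 0.73 ± 0.20 and 0.55 ± 0.17, none called. By the indirect route 34 of 36 tested members were positive, with a median of 0.35. With the ratios left as deposited the list's median was -0.02. If the dye labels are right, a difference between the lines cancels in that setting, so this median does not check the sign.

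**Figure D3:**
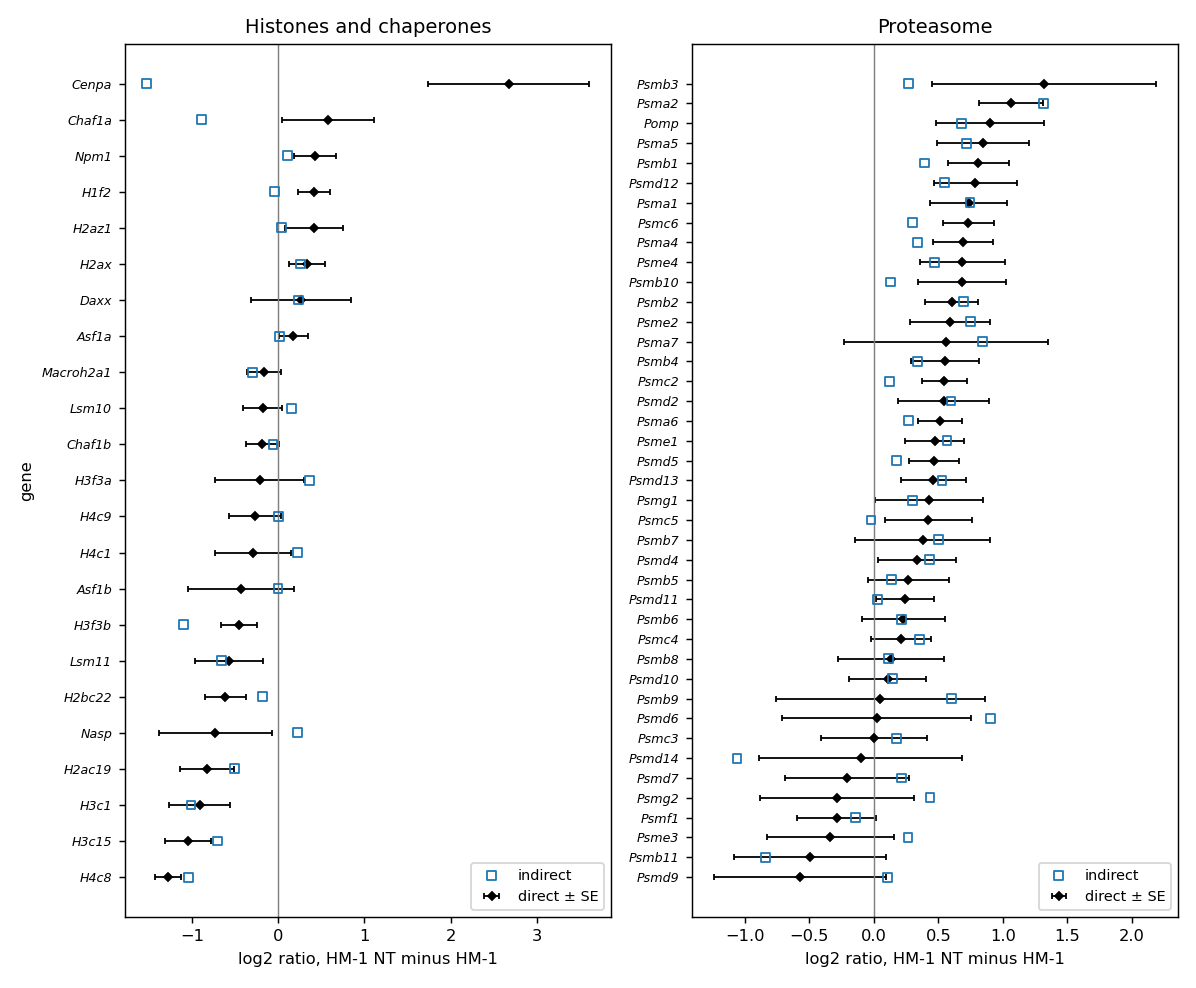
Direct log2 ratio (4 arrays, black) and indirect value (16 arrays, blue squares) of each tested member of the histone and proteasome lists. Direct values are shown ± SE from the fit over all arrays of the series. In the proteasome panel 34 of 41 direct values are above 0, and in the histone panel the 7 canonical core histone genes of the list are below 0.

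The ribosomal protein, respiratory chain, cell cycle, chaperone and mitochondrial ribosome lists also had positive medians. Of 61 ribosomal protein genes 53 were positive with a median of 0.25, and of 65 respiratory chain genes 54 with a median of 0.23, none called in either. In each of these lists 12 genes were positive at an unadjusted p under 0.05 (19.7% and 18.5%, against 3.91% of all features). Rps15 gave 0.11, 0.71, 0.77 and 2.59, highest on array 4, and Cox7a2, a subunit of cytochrome c oxidase, gave 0.91, 0.94, 1.20 and 0.96, nearly level. Their fitted values were 1.05 ± 0.29 (adjusted p = 0.124) and 1.003 ± 0.36 (adjusted p = 0.388). Ribosomal protein genes have many processed copies, so a cDNA probe can pick up more than 1. Of 41 cell cycle genes 34 were positive with a median of 0.30, none called and 6 positive at an unadjusted p under 0.05 (14.6% against 3.91%). Among these Cdc20, an activator of the anaphase-promoting complex, was 0.63 to 0.94 on all arrays (fitted 0.78 ± 0.27, adjusted p = 0.353). Of 36 chaperone genes 23 were positive with a median of 0.24, which was -0.03 with the ratios as deposited, and 9 were positive at an unadjusted p under 0.05 (25% against 3.91%). The smallest p of this list was that of Hsp90b1, the Hsp90 of the endoplasmic reticulum, which gave 1.52, 1.37, 1.11 and 1.10. Hsp90b1 did not pass, at 1.27 ± 0.35 and an adjusted p of 0.135. Mitochondrial ribosome genes had a median of 0.10, with 43 of 60 positive and 3 positive at an unadjusted p under 0.05 (5% against 3.91%). Array medians of this list were 0.31, 0.40, -0.08 and 0.02, higher where HM-1 NT was in Cy5.

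**Figure D4:**
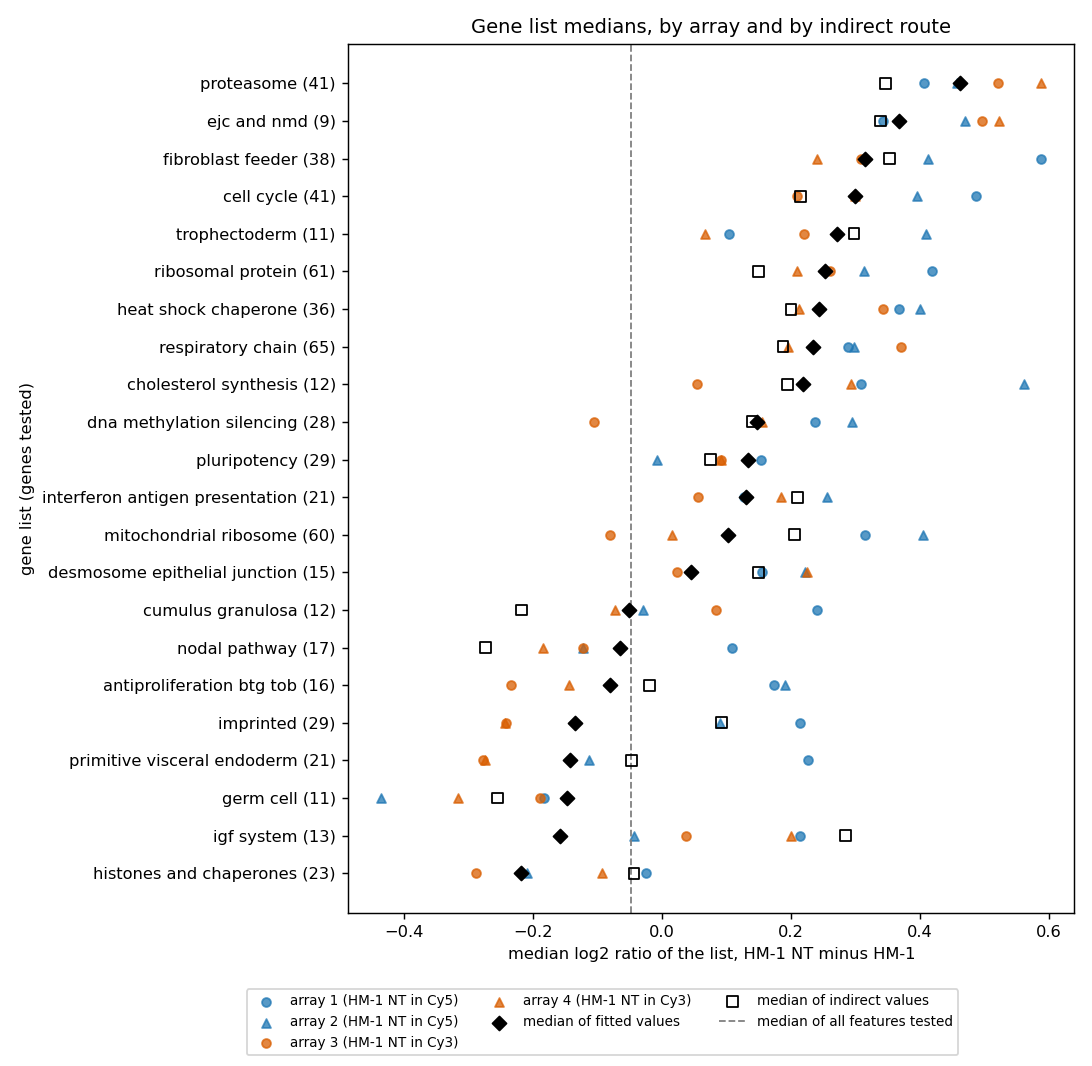
Median log2 ratio (HM-1 NT minus HM-1) of 22 gene lists on each array, in the fit and by the indirect route, with the number of genes tested; the dashed line is the median of all features, -0.05. The proteasome list is highest at 0.46 and the histone list lowest at -0.22, and no list was tested as a set.

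Among the called RNA processing genes, Rbm8a is the Y14 subunit of the exon junction complex, which marks spliced mRNA, and lies on chromosome 3. Its values of 1.10, 1.005, 1.38 and 1.22 did not overlap 0 on any array and varied little. The fit gave 1.17 ± 0.19 (adjusted p = 1.2e-03 in limma), and all fits without 1 array kept the call at 1.14 to 1.20. Its indirect value was 1.29 ± 0.19 (adjusted p = 1.3e-04). Rbm8a was also called positive against HM-1 in B6NT, PDCUMNT and ZFCUMNT, at 0.91, 1.07 and 1.14, but not in #4 (B6), at 0.50 ± 0.19, or B6PGA, at 0.04 ± 0.19. Of all features 0.127% were called positive in B6NT, 0.555% in PDCUMNT, 0.0377% in ZFCUMNT, 0.389% in B6PGA and 0.0792% in #4 (B6). Of 9 genes of the exon junction complex and nonsense-mediated decay list 7 were positive, with a median of 0.37 that turned to -0.12 with the ratios as deposited. Eif4a3, the helicase that anchors the complex, was 0.37 ± 0.31, and Casc3, another core subunit, was -0.28 ± 0.30.

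Srrt, also called Ars2, links the cap-binding complex to RNA processing and lies on chromosome 5. It gave 1.75, 1.48, 0.55 and 0.31, higher where HM-1 NT was in Cy5, and 1.02 ± 0.24 in the fit (adjusted p = 0.042). No fit without 1 array kept the call, with values from 0.88 to 1.16. Brix1, a ribosome biogenesis factor on chromosome 15, gave 0.95, 0.77, 0.53 and 1.01, all positive, and 0.81 ± 0.18 (adjusted p = 0.0271). It was lost without array 1, 3 or 4, at 0.71 to 0.87 over all such fits. Cwc25, a splicing factor on chromosome 11, gave -1.93 and -1.97 on arrays 1 and 2, -1.01 on array 3 and 0.02 on array 4. Its fitted value was -1.22 ± 0.23 (adjusted p = 6.6e-03), lost without array 1 or 2, with a range of -1.58 to -1.03. By the indirect route Srrt was 0.74 and Brix1 0.67, of like size without passing, while Cwc25 was -0.18 ± 0.23.

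Igfbp3, a secreted protein that binds insulin-like growth factors, lies on chromosome 11. It gave 1.56, 1.15, 1.64 and 1.84, positive on all arrays without overlap with 0. The fit gave 1.55 ± 0.32 (adjusted p = 0.0203 in limma), and the call was lost without array 1, 3 or 4, at 1.47 to 1.61 over the fits without 1 array. Its indirect value was 0.80 ± 0.32 (adjusted p = 0.54). The ligand Igf2 was 0.62 ± 0.33 and the binding protein Igfbp2 0.78 ± 0.52, neither called, and the receptors Igf1r and Igf2r were -0.07 ± 0.30 and -0.33 ± 0.34. Of the 13 genes tested in this system 5 were positive, with a median of fitted values of -0.16. This median lay between -0.21 and 0.13 under the other settings with turned ratios and was 0.19 with the ratios as deposited. Array medians of the list were 0.21, -0.04, 0.04 and 0.20. By the indirect route its median was 0.29, with 9 of 12 positive.

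S100a11, a calcium-binding protein of the S100 family on chromosome 3, gave 1.21 and 1.62 on arrays 1 and 2 but 0.35 and -0.15 on arrays 3 and 4. The orientations did not overlap, and the fitted value, from a model with a dye term for each feature, was 0.76 ± 0.18 (adjusted p = 0.0424). No fit without 1 array kept the call, at 0.68 to 0.85. It was called positive in 4 of the 5 other comparisons with HM-1, at 0.72 to 1.14, and was 0.71 ± 0.18 in B6NT (adjusted p = 0.0866). Its indirect value was 0.85 ± 0.18 (adjusted p = 0.0206).

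Markers of fibroblasts, which serve as feeder cells in many ES cultures, lay on the same side as Igfbp3 and S100a11. Of 38 tested 29 were positive with a median of 0.31, none was called, and 10 were positive at an unadjusted p under 0.05 (26.3% against 3.91%). Array medians of this list ran from 0.24 to 0.59. Ccdc80, a matrix protein, gave 2.74, 2.20, 1.08 and 1.58 (fitted 1.90 ± 0.51, adjusted p = 0.119), and Sparc, a collagen-binding matrix protein, gave 0.62, 1.04, 0.91 and 0.78 (fitted 0.84 ± 0.27, adjusted p = 0.262). Both were positive on all arrays, as was Col1a1, fibrillar collagen, at 0.23 to 1.16. Other defining markers were on either side of 0, with Vim at 0.61 ± 0.21, Thy1 at -0.09 ± 0.29 and Dcn at -1.32 ± 0.65. The part of such cells in the called genes was not tested. In bulk RNA, more cells of a type and more RNA per cell cannot be told apart.

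Hmgcs1, the synthase that makes HMG-CoA for cholesterol, lies on chromosome 13 and was measured by 2 probes. It gave 0.65, 0.74, 3.06 and 1.46, positive on all arrays and highest on array 3. The fitted value was 1.48 ± 0.32 (adjusted p = 0.023 in limma), lost without array 3 or 4, and the values without 1 array ran from 0.96 to 1.74. Over all alternatives with turned ratios, which included each probe singly, the value ran from 0.95 to 2.00. The indirect value was 0.96 ± 0.32 (adjusted p = 0.376), and HM-1 against PDCUMNT called it positive at 1.34 ± 0.32. Of 12 cholesterol synthesis genes tested 9 were positive, with a median of 0.22 and Hmgcs1 the 1 called. Fdft1, which makes squalene, was 0.51 ± 0.27, Fdps, which makes farnesyl diphosphate, 0.79 ± 0.64, and Cyp51, a demethylase further down the pathway, -0.39 ± 0.54. The Hmgcs1 promoter is shown as the called gene of this list, from RefSeq for GRCm38.p6, chr13:119690101-119690400, plus strand, 5′ to 3′. Capitals mark ATTGG, which is CCAAT on the other strand, and CACCCCAC, the letters of a sterol response element.
Hmgcs1: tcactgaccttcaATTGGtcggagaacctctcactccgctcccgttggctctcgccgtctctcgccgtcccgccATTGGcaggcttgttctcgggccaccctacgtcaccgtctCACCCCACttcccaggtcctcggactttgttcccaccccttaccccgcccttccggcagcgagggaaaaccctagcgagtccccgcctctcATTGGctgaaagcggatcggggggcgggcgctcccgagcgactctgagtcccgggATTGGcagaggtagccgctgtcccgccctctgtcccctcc
The window held CCAAT 4 times, all on the strand opposite to the one shown, and CACCCCAC once on the shown strand. Of 32851 promoters of this length 37.4% hold CCAAT and 2.87% hold CACCCCAC on either strand.

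Bex1, an X-linked adaptor in neurotrophin receptor signalling, gave 1.78, 1.15, 0.72 and 1.36. All arrays were positive, with a fitted value of 1.25 ± 0.25 (adjusted p = 0.0112) that lost its call without array 1 or 4, at 1.14 to 1.37. The indirect value was 0.95 ± 0.25 (adjusted p = 0.178), and B6NT against HM-1 called it at 1.57. Septin6, the other called gene on the X chromosome and a filament-forming GTPase, spread from -0.48 on array 1 to 3.71 on array 3, with 2.73 on array 2 and 1.27 on array 4. Its fitted value was 1.81 ± 0.42 (adjusted p = 0.0444), lost without array 2, 3 or 4, at 1.26 to 2.49. The indirect value of Septin6 was 0.47 ± 0.42 (adjusted p = 0.919 in limma), with 1.06 by way of B6NT and -0.11 by way of ZFCUMNT. Over all alternatives with turned ratios, which included each of its 2 probes singly, the value ran from 0.87 to 2.59.

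For the remaining named genes the call rested on a few arrays and the indirect value was small or of the other sign. Btg3, an antiproliferative adaptor of the deadenylase complex, gave 0.48 and 0.36 on arrays 1 and 2 and 4.46 and 4.59 on arrays 3 and 4. Its fitted value was 2.47 ± 0.55 (adjusted p = 0.0387), lost without array 3 or 4, at 1.91 to 3.03, and its indirect value was -0.46 ± 0.55. Siah1a, a ubiquitin ligase, gave 0.80, -0.61, 4.75 and 4.12, with a fitted value of 2.27 ± 0.53 lost without array 3 or 4, at 1.49 to 3.17, and an indirect value of -0.25 ± 0.53. Both genes were thus high where HM-1 NT was in Cy3. Siah1a shared both of its high values, and Btg3 that of array 4, with another feature on the same array.

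Casq1, the calcium-binding protein of the muscle sarcoplasmic reticulum, showed the opposite arrangement, with -3.44 and -8.51 on arrays 1 and 2 and 0.42 and 0.23 on arrays 3 and 4. The fitted value of -2.82 ± 0.58 (adjusted p = 0.0156) was lost without array 1 or 2, and without 1 array it ran from -3.75 to -1.06. Nckap1, a subunit of the actin regulating WAVE complex, gave -3.05, -3.36, -0.41 and 0.07, and its -1.69 ± 0.36 was lost without array 1 or 2, at -2.26 to -1.14. Shkbp1, a binding partner of the endocytic adaptor Sh3kbp1, was measured on arrays 1 to 3 at -3.80, -4.73 and -0.50. The fit gave -2.83 ± 0.49 (adjusted p = 2.2e-03), lost without array 2 and kept without array 1. Leaving out array 4, where Shkbp1 was not measured, kept the value at -2.83. Without array 3 only 1 dye orientation was left, so it was not tested. The values without 1 array ran from -2.83 to -2.15. Indirect values were 0.29 for Casq1, -0.14 for Nckap1 and -0.12 for Shkbp1. The low values of these genes came from the arrays with HM-1 NT in Cy5, and that of Casq1 on array 2 recurred in Bckdk.

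Pld3, an endolysosomal nuclease of the phospholipase D family, was low on 3 arrays at -2.40, -2.84 and -3.01 and at 0.40 on array 4. Its -1.96 ± 0.36 (adjusted p = 4.0e-03) was lost without array 3, at -2.70 to -1.53. Thnsl1, a threonine synthase-like protein, had 1 very high array, with 0.30, 0.54, 6.39 and 1.85, and its 2.27 ± 0.46 was lost without array 3, at 0.93 to 2.87. Zfpl1, a Golgi zinc finger protein, gave -0.09, 1.05, 3.44 and 1.55, and its 1.49 ± 0.32 was lost without array 3 or 4, at 0.89 to 1.95. Indirect values were -0.23 ± 0.36 for Pld3, 0.15 ± 0.46 for Thnsl1 and -0.22 ± 0.32 for Zfpl1. The highest or lowest array of all 3 genes was array 3, on which the value of Thnsl1 recurred in Nfe2.

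Pkp1, a desmosomal plaque protein, gave 0.95, 2.20, 3.55 and 2.56 over 2 probes, positive throughout. Its fitted value was 2.31 ± 0.51 (adjusted p = 0.0297), lost without array 2, 3 or 4, at 2.01 to 2.66, while the indirect value was -0.70 ± 0.53. Of 15 desmosome and junction genes 8 were positive, with a median of 0.05 that turned to -0.08 with the ratios as deposited, and Epcam was 0.05 ± 0.24. Cfap126, a ciliary protein, gave 4.52, 2.02, 1.59 and 1.89, with 2.51 ± 0.51 in the fit (adjusted p = 0.0211), lost without array 1, 3 or 4, at 1.92 to 2.78. Its indirect value of -1.23 ± 0.69 came from too few measured arrays to enter the test.

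**Figure D5:**
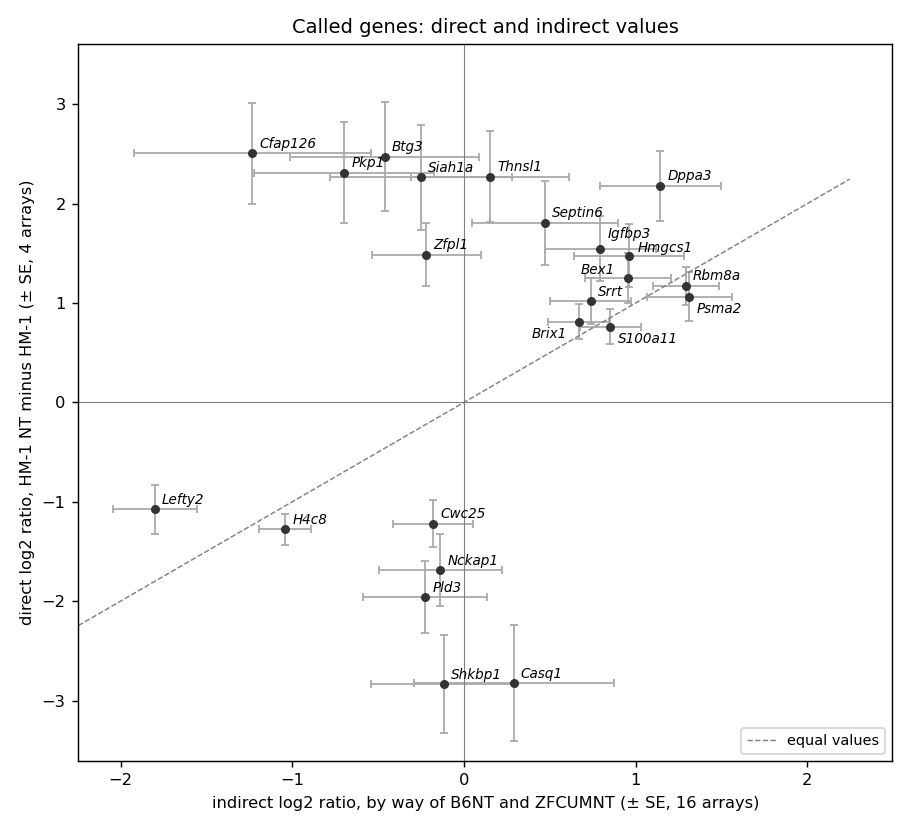
Direct value (4 arrays) against indirect value (16 other arrays) of the 23 called genes, both as log2 ratio HM-1 NT minus HM-1 with SE bars; the dashed line marks equal values. H4c8, Lefty2, Rbm8a, Psma2 and S100a11 passed on both, while Casq1, Shkbp1, Btg3, Siah1a, Thnsl1 and Pkp1 lie at a fitted size above 2 with an indirect value within 0.70 of 0.

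Side by side, 5 of the 23 named genes passed by the direct and by the indirect measure, with the same sign: H4c8, Rbm8a, Lefty2, Psma2 and S100a11. The background of the indirect measure was 0.11%, and both measures share the 2 lines. For none of the 22 genes with a tested difference did the direct minus the indirect value pass the adjusted threshold in limma, while 13 had an unadjusted p under 0.05. The intervals of these differences were wide, from -4.77 to -1.45 for Casq1 and from 1.36 to 4.51 for Btg3, so the values were not shown to be alike.

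The lists for other cell fates held no called gene besides those named. Of 21 genes of primitive and visceral endoderm 16 were negative with a median of -0.14, and none reached an unadjusted p under 0.05. Array medians of the endoderm list were 0.23, -0.11, -0.28 and -0.27, and its indirect median was -0.05. Trophectoderm genes had 8 of 11 positive with a median of 0.27, led by the keratin Krt8 at 1.91, 1.64, 0.99 and 0.90 (fitted 1.36 ± 0.43, adjusted p = 0.24). Germ cell genes had 9 of 11 negative with a median of -0.15, while Rhox5, an X-linked homeobox gene, was positive on all arrays at 0.56 to 1.28 (adjusted p = 0.506). Of 29 imprinted genes 18 were negative with a median of -0.13, and 37.9% were positive against 44.8% of all features. Array medians of the imprinted list were 0.21, 0.09, -0.24 and -0.24, so its sign followed the dye orientation. By the indirect route its median was 0.09, with 17 of 28 positive. Of 28 DNA methylation and silencing genes 22 were positive with a median of 0.15. Cumulus cell genes had 5 of 12 positive, with a median of -0.05. Of 21 interferon and antigen presentation genes 13 were positive with a median of 0.13, and Ifitm1 and Ifitm2, antiviral membrane proteins, were 0.66 ± 0.20 and 0.70 ± 0.23 without passing. Of 16 genes of the list around Btg3 11 were negative, with a median of -0.08. With the ratios as deposited the medians turned to 0.18 for endoderm, 0.19 for imprinted and 0.04 for the Btg3 list. Of primed epiblast genes 2 were tested, with values of -0.16 and 0.08.

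The 18 called features without a symbol followed the same mix, with 11 positive and 7 negative. Probe 1746 gave -3.59, -3.92, -2.66 and -2.75, far below 0 on all 4 arrays, with a fitted value of -3.23 ± 0.49 (adjusted p = 4.2e-04). Its indirect value of -1.76 ± 0.49 did not pass (adjusted p = 0.224 in limma). The routes differed, with -3.14 by way of B6NT and -0.39 by way of ZFCUMNT. Probe 2273 gave -1.17, -1.30, -1.19 and -0.85 and passed on both measures, at -1.13 ± 0.23 and -2.04 ± 0.23. Probe 11850 gave 1.20, 1.24, 1.29 and 1.63 and also passed on both, at 1.34 ± 0.23 and 1.15 ± 0.23. These 3 were picked for print after their values were seen, and their genes are not named in the annotation used.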

How the data were processed

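The values are the deposited log2 ratios of 1 channel to the other, for 20794 probes on 52 arrays; log2 is read from their range. The dye in the numerator, scanner, image analysis, background correction and normalization are not given in the sources used here. On each array 20 to 174 probes shared 1 top value above 12, treated as not measured, which on the 4 arrays of HM-1 and HM-1 NT left 19204 to 19921 measured probes. Symbols came from the platform annotation for 12771 probes, 8023 had none, and all matched the RefSeq symbol of their Entrez identifier. Probes of a gene were averaged, giving 9030 genes and 17053 features. No build is given for the probes, so genes are placed by chromosome alone. Promoter sequences are RefSeq's for GRCm38.p6.

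Ratios were turned by the dye labels. A linear model over all 52 arrays had 13 comparison coefficients plus a dye term for each feature, fitted with lmFit and eBayes of limma 3.58.1 (R 4.3.3). A feature was tested if at least 3 of the 4 arrays and both dye orientations were measured, and Benjamini-Hochberg adjustment ran over all features of a comparison, with calls at an adjusted p under 0.05. The fit was run on simulated data with normal noise and known changes, which do not mimic extreme values on single arrays. Indirect values are contrasts of the same fit. Genes named are all called genes with a symbol, up to 4 members with the smallest unadjusted p under 0.05 in each list, and Pou5f1, Sox2, Klf4, Zfp42 and Dppa5a; other list members are given to describe their pathway. The members and lists were chosen with earlier results of these data known, and no list was tested as a set. Alternatives covered the turn by dye, the top value, centring, scaling, weights, the dye term, the filter, single probes, the model and each array left out.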

Additional observations from a re-analysis of the deposited data

Results flagged for a closer look

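Cfap126 on array 1, at 4.52, lay far from the other 3 arrays of its group, which ran from 1.59 to 2.02. It was 1 of 48 groups of 4 values examined, and chance marks about 1 in 20.

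The difference HM-1 NT minus HM-1 was set against the difference B6NT minus #4 (B6), another pair in the series that sets a line against a line with NT in its name. In limma 30 of 15227 features differed between the 2 comparisons (0.197%). H4c8 differed by -1.27 (adjusted p = 9.2e-04), with -1.28 in HM-1 NT and -0.01 in B6NT. Lefty2 differed by -3.32 (adjusted p = 6.6e-08), with -1.08 in HM-1 NT and 2.25 in B6NT. Igfbp3 differed by 2.51 (adjusted p = 2.96e-03), with 1.55 and -0.96. Shkbp1 differed by -3.31 (adjusted p = 7.9e-03), with -2.83 and 0.48, Brix1 by 1.29 (adjusted p = 7.9e-03), with 0.81 and -0.47, and S100a11 by 1.20 (adjusted p = 0.0151), with 0.76 and -0.44.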

How the results depend on the processing

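Leaving the ratios as deposited changed most. It gave 618 calls, 11 of them among the 41, 32 by the indirect measure, 95 for direct minus indirect and 214 against the pair #4 (B6) and B6NT, and turned these signs: Rbm8a -0.12, Thnsl1 -1.85, Igfbp3 -0.19, Zfpl1 -1.01, Hmgcs1 -0.78, Pkp1 -0.74, Btg3 -2.05, Psma2 -0.11, Septin6 -0.68, Siah1a -2.17, Sall1 0.30, Lefty1 0.22, Cenpa -2.74, H2ac19 0.88, Mcm4 -1.67, Aurkb -0.0602, Sparc -0.0087, Slc22a18 -1.69, Rhox5 -0.21, Smc1b 0.37, Mael 0.61, Ifitm2 -0.16, Ly6e -0.98, Nxf1 -0.0502, Psmb1 -0.41, Rps15 -0.63, Rpl7 -0.24, Rps12 -1.004, Rps15a -1.75, Mrpl47 -0.29, Mrpl51 -0.0718, Cox7a2 -0.0803, Atp5d -1.51, Pdia4 -0.0758, Dnaja1 -0.33, Jam2 0.84 and Zfp42 -0.23. If the dye labels are right, a difference between the lines cancels in this setting, so these signs do not check the turned values. None of the 23 called genes reversed under the other alternatives. Probes taken singly turned 1 Timp3 probe to -0.36 and 1 Sox2 probe to 0.23, and 1 coefficient per line turned Zfp42 to -0.51. Scaling the arrays to equal spread gave 64 calls, 52 indirect and 109 against the #4 (B6) pair. Array weights gave 190, 23, 1 and 108 calls for the direct, indirect, direct minus indirect and #4 (B6) results, with 40 of the 41 kept. The fit without a dye term gave 22 and, against the #4 (B6) pair, 15. One coefficient per line gave 119 calls, 23 of them among the 41, and the 4 arrays fitted alone gave 0, with 1719 at an unadjusted p under 0.05. Without 1 array the direct calls ran from 19 to 57 and those of direct minus indirect from 0 to 2; 3 of 23 named genes kept the call in all 4 such fits. Array numbers did not pair arrays across comparisons (mean residual correlations of -0.05 to -0.03), and the replicate block in place of the dye term gave 38 calls, 37 of them among the 41. The causes of these shifts were not tested. Without intensities, signal over background could not limit which ratios were used.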
